A study of Arabidopsis thaliana with 8 samples.

Results

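Long gaps were defined as stretches of 1000 bp or more on the 5 nuclear chromosomes of Arabidopsis thaliana that no listed nucleosome covered in any of 4 micrococcal nuclease (MNase) lists. They were chosen by the measured values themselves, since a base entered a gap only because every list left it uncovered, so the absence of nucleosomes inside them is their definition and not a finding. Of 226101 uncovered stretches of any length, 4622 reached 1000 bp (2.04%). These long gaps summed to 14.5 Mb, which is 12.2% of the nuclear genome and 35.0% of all bases that the lists left uncovered. Their length ran from 1000 bp to 105210 bp with a median of 1670 bp.

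The 8 libraries came from Landsberg erecta plants with the 35S:LFY-GR transgene, in which the broadly active 35S promoter drives the transcription factor LEAFY (LFY) joined to the steroid-binding part of the glucocorticoid receptor. All groups carried this transgene. Roots of seedlings 3 weeks old were held on callus-inducing medium for 5 days and received a mock solution or the steroid dexamethasone (dex), which lets the fusion protein enter the nucleus, for 1 h before a low or a high (standard) MNase digest. Each of the 4 conditions had 2 libraries but was represented by 1 list, named as pooled, so no value below has a spread between replicates and no test was made. The lists are called mock/low, dex/low, mock/high and dex/high, by treatment and digest. The dex/high list is assigned by its label. The names written inside it point to a low digest, whereas its length is close to the number of nucleosomes that the study's methods state for dex with the high digest. Numbers of reads were not in the lists, so the depth behind a gap is unknown. Per the study's methods, the libraries of dex/low were pooled before nucleosomes were called and those of the other conditions were not, so dex/low was made differently from the lists it is set beside. The lists differed in length, from 242336 intervals for dex/low and 316733 for mock/low to 376240 for dex/high and 482098 for mock/high. These counts are for the nuclear chromosomes. The dex/low count is above the number of nucleosomes that the methods state for that condition, whereas each other count is slightly below its stated number.

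MNase cuts DNA between nucleosomes, and fragments that a histone octamer protected are sequenced. The enzyme cuts sequences rich in A and T more readily than others. Reads that match several places cannot be assigned to 1 of them, which is frequent in plant pericentromeres, where retrotransposons and their remnants occur in many near-identical copies, and in arrays of recently duplicated genes. Such arrays include genes for NLR proteins, the intracellular immune receptors with a nucleotide-binding site and leucine-rich repeats, and for small secreted peptides, both of which also vary between accessions. Reads of Landsberg erecta were placed here on the Columbia reference, and the part of differences between both genomes in any gap was not tested.

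The authors kept read pairs with a single place in the genome. Gaps were therefore sorted by whether such a pair could exist: a fragment of 146 bp was called placeable when at least 1 of its end tiles of 36 bases had no other place in the reference within 2 mismatches. Over the nuclear genome 88.1% of fragments were placeable, with 95.3% on chromosome arms and 61.9% in pericentromeres. In 1690 long gaps (36.6%) over 80% of fragments were placeable, in 1353 (29.3%) fewer than 20% were, and 1569 (33.9%) lay between. These are called placeable, repeat and mixed gaps. The other 10 were assembly gaps, made up of unknown bases for at least 50% of their length.

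The 3 classes differed in length and composition. Repeat gaps were the longest, with a median of 2070 bp (quartiles 1360 and 3780 bp), and they held 5.55 Mb or 38.3% of all gap bases. Mixed gaps had a median of 1790 bp and held 4.74 Mb. Placeable gaps were shorter, with a median of 1388 bp (quartiles 1130 and 2290 bp), and held 3.99 Mb. The median GC content was 38.9% in repeat gaps, 30.4% in mixed gaps and 27.9% in placeable gaps, against 36% for the nuclear genome. Lengths of 10 kb or more were reached by 94 repeat gaps, 61 mixed gaps and 39 placeable gaps.

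**Figure D1:**
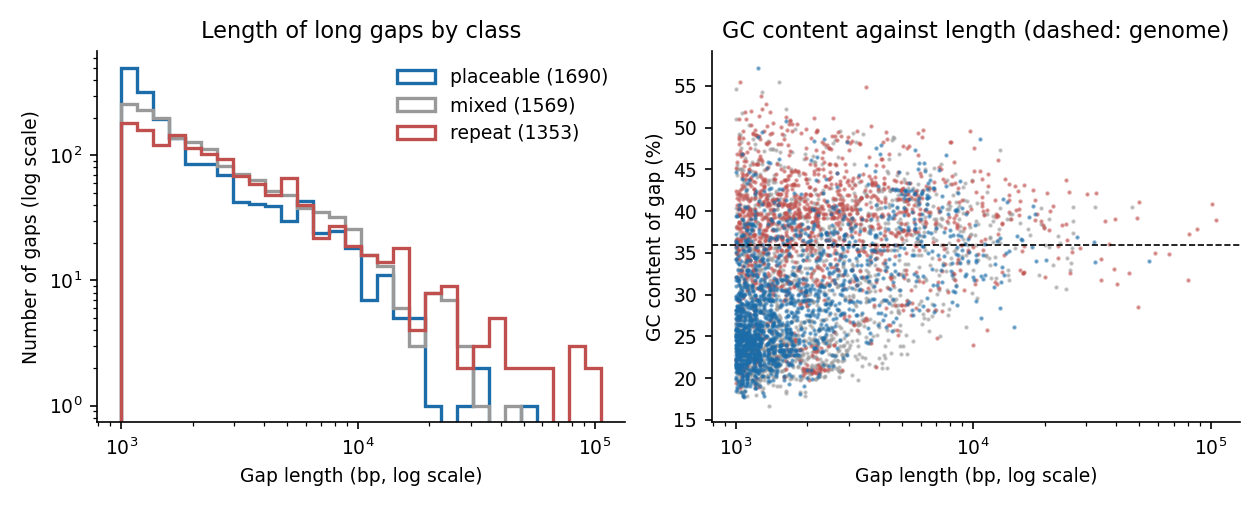
Left, number of long gaps by length in bp for placeable, mixed and repeat gaps, both axes on a log scale. Right, GC content of each gap in percent against its length on a log axis, 1 point per gap in the same colors, with the nuclear genome at 36% as a dashed line; short placeable gaps lie mostly below the line and placeable gaps of 5 kb or more come close to it.

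The composition of placeable gaps changed with length. Between 1000 and 1500 bp their median GC content was 25.3% (956 gaps), and a mean of 79.1% of their bases lay between genes. From 5 to 10 kb the median GC content was 37.7% (123 gaps), and 37.3% of bases lay between genes. The 39 placeable gaps of 10 kb or more turned back, with a median GC content of 34.8% and 49.7% of bases between genes, and 66.7% of them lay in pericentromeres. Short placeable gaps continued the pattern of shorter uncovered stretches: placeable stretches of 500 to 1000 bp had a median GC content of 24.7%, and those of 100 to 200 bp had 27.7%. The threshold of 1000 bp cut through this continuum. There were 70 gaps of exactly 1000 bp with a median GC content of 26.1%, and 51 stretches of 990 bp with 26.2%. The first 3 gaps in chromosome order at 1000 bp had GC contents of 24.5%, 23.9% and 29.5%, and the 3 longest stretches outside, all of 995 bp, had 36.9%, 22.3% and 22.6%.

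The sequence at the center of the placeable gaps of lowest and highest GC content without unknown bases is shown because it gives the extremes of that range. The first gap, chr4:16827022-16828101 (TAIR10), was 1080 bp long with 17.7% GC and lay on the arm between AT4G35380, annotated as a SEC7-like guanine nucleotide exchange protein, and AGF1 (AT4G35390), an AT-hook protein. The second, chr5:11654662-11656281, was 1620 bp long with 50.8% GC and lay in the pericentromere. Capitals mark runs of 6 or more A or T of 1 letter, and both sequences are from the plus strand, 5′ to 3′, chr4:16827462-16827661 and chr5:11655372-11655571.
Lowest GC: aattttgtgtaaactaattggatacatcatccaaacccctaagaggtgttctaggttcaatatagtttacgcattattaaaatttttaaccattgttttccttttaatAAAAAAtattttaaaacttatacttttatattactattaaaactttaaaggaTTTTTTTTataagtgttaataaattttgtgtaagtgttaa
Highest GC: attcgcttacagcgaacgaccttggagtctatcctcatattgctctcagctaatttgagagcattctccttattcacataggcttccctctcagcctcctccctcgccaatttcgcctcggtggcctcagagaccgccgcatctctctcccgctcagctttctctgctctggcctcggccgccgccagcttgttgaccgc
The first window had 21.0% GC and 2 such runs, and the second had 56.5% GC and 0. The uncovered stretch that contains the first gap was 1350 bp in mock/low, 2980 bp in dex/low, 1090 bp in mock/high and 1350 bp in dex/high. For the second gap these lengths were 1960, 4030, 2280 and 1630 bp, in that order. In both cases dex/low, the shortest list, left the longest stretch open.

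Runs of A or T are known to resist bending around the histone octamer. Runs of 8 or more A or T of 1 letter occurred 1.77 times per kb in placeable gaps under 2 kb, 0.638 times per kb in placeable gaps of 5 kb or more, 0.528 times per kb in repeat gaps and 0.413 times per kb in sequence covered by at least 1 list. Uncovered stretches from 200 bp up to 1000 bp had 1.87 per kb, so that short placeable gaps resembled shorter open stretches in this respect. Bases in runs of 20 or more made only of A and T were 2.93% of placeable gaps under 2 kb, 1.19% of those of 5 kb or more and 0.117% of covered sequence. The core LFY motif CCANTGG (N stands for any letter) was present 0.941 times per 10 kb in placeable gaps under 2 kb (144 matches), 1.67 times in those of 5 kb or more (243 matches) and 1.65 times in the nuclear genome. A match is not a binding site, and GC-poor sequence holds fewer matches to any GC-rich word.

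About 2 kb outside placeable gaps, 31% of bases were covered in mock/low, 23.8% in dex/low, 48.6% in mock/high and 37.2% in dex/high. These values lay below the shares of the whole nuclear genome that the same lists covered, 36.1%, 27.9%, 54.4% and 42.7%. The nucleosome that closes a gap must be covered by at least 1 list by construction, and 75 bp outside placeable gaps the mock/high list covered 89.3% of bases and dex/low 31.7%. GC content was 38.9% there, fell to 30.2% in the first 50 bp inside and was 28.6% at 475 bp inside. Around repeat gaps GC content changed little, from 40.9% just outside to 37.8% at 475 bp inside. Placeable fragments fell from 40.8% to 6.18% over the same distance, and the low value inside follows from the definition of this class.

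**Figure D2:**
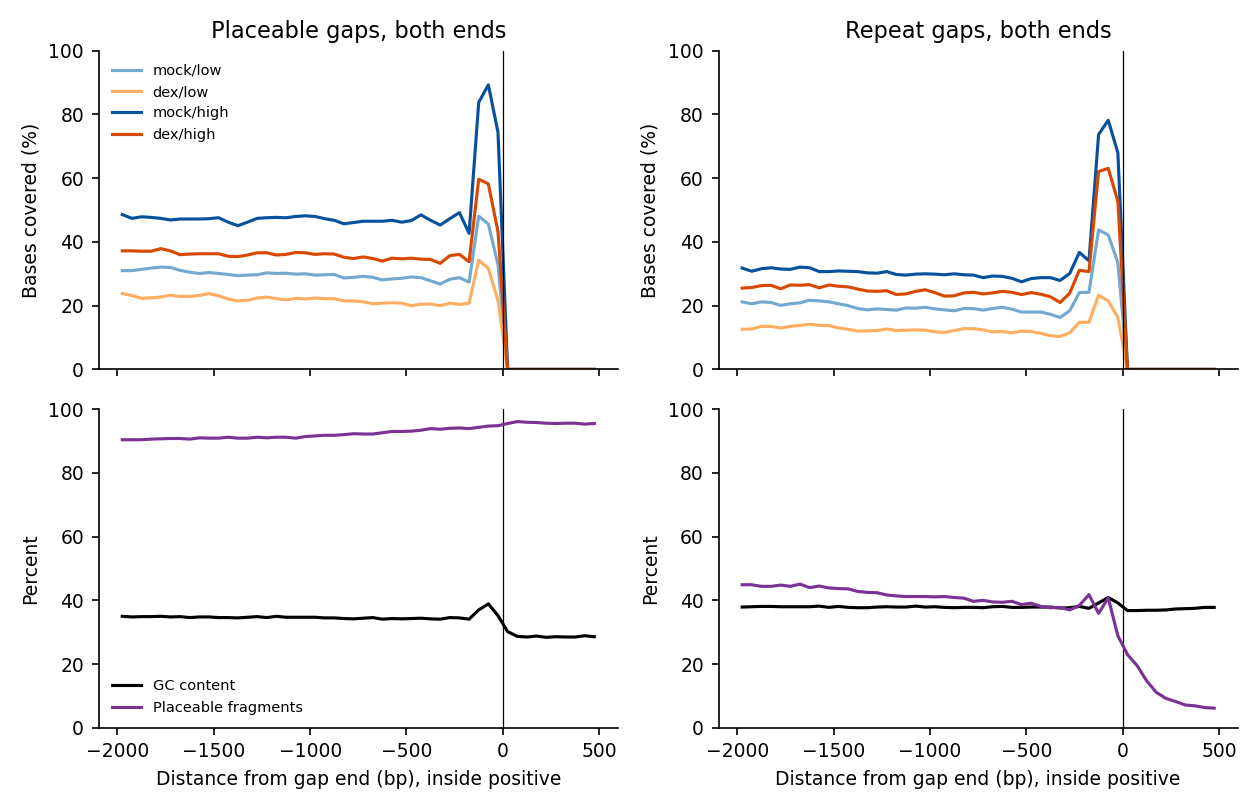
Top, share of bases covered by each list in bins of 50 bp against the distance from a gap end in bp (inside positive), averaged over both ends of 1690 placeable gaps (left) and 1353 repeat gaps (right). Bottom, GC content and share of placeable fragments in percent on the same axis. At placeable gap ends GC content drops from 38.9% to 28.6%. At repeat gap ends placeable fragments drop from 40.8% to 6.18%, where the low value inside is set by the class definition.

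Nucleosomes that flank the gaps mostly had an occupancy below the median of their own list. The nearest nucleosome on each side of a placeable gap stood at a median percentile of 39.4 in mock/low, 45.0 in dex/low, 26.2 in mock/high and 29.5 in dex/high. Around repeat gaps the median percentiles were 25, 26.9, 16.1 and 19.3, in that order. Some of the 4622 long gaps followed each other closely. In 814 cases under 300 bp of covered sequence separated neighboring long gaps, and in 487 of these the bridge was exactly 140 bp, the length of 1 listed interval. A bridge appeared in 1 list alone in 414 cases (50.9%), and then it came from mock/high in 259, dex/high in 129, mock/low in 18 and dex/low in 8. Only 91 bridges were covered in all 4 lists.

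The mock/high list, the longest, set most of the boundaries. Its edge formed 58.3% of all gap ends, compared with 32.4% for dex/high, 20.6% for mock/low and 12.5% for dex/low. An end can be shared by several lists. Without mock/high there were 7780 long gaps in place of 4622, 4518 placeable ones in place of 1690, and 2670 protein-coding starts inside in place of 1502, while leaving out any other list gave 4683 to 4695 gaps. Alone, mock/high left 5045 stretches of 1000 bp or more open (15.6 Mb), dex/high 10217 (24.2 Mb), mock/low 13058 (30.3 Mb) and dex/low 16288 (38.3 Mb). Of the bases in these single-list stretches, 92.6%, 59.8%, 47.7% and 37.9% lay in joint gaps, in the same order. Both mock lists together left 4777 stretches open, of which 1799 were placeable, and both dex lists left 8146, of which 4807 were placeable. The repeat class hardly moved, with 1344 gaps in mock and 1275 in dex. Low digest lists together left 9759 open and high digest lists 4783. Among single lists the order followed list length, so treatment or digest cannot be told apart from the number of reads behind a list.

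A gap can be judged shared between conditions when each list on its own ends near the same place. In all 4 lists the open stretch was under 1.5 times the joint gap for 705 of 1690 placeable gaps (41.7%) and 366 of 1353 repeat gaps (27.1%). Among placeable gaps the share was 35.3% below 2 kb, 55.2% from 2 to 5 kb and 61.1% at 5 kb or more (99 of 162). Because the limit is a ratio, a longer gap allows more extra bases. The rise with length therefore does not show that longer gaps are shared more closely. For the 162 placeable gaps of 5 kb or more, the median ratio of list stretch to gap was 1.07 in mock/low, 1.25 in dex/low, 1.00 in mock/high and 1.02 in dex/high.

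Pericentromeres were taken as the regions where protein-coding genes fill under 40% of the sequence, averaged over 11 windows of 100 kb. They made up 21.6% of the nuclear genome (25.7 Mb) and held 2267 long gaps, or 49.0%. Gaps were present at 88.2 per Mb in pericentromeres and 25.2 per Mb on arms, and they took up 34.5% and 6.01% of the sequence. The share of pericentromeric sequence in gaps was 41.0% on chromosome 1, 29.2% on chromosome 2, 40.3% on chromosome 3, 30.7% on chromosome 4 and 31.8% on chromosome 5. On arms the range was narrow, from 5.05% on chromosome 3 to 6.49% on chromosome 1. Repeat gaps were 36.4 per Mb in pericentromeres and 4.46 per Mb on arms. For placeable gaps the densities were closer, at 19.4 and 12.7 per Mb, and 1191 of the 1690 lay on arms.

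Relative to genes, long gaps lay mainly in sequence with no annotated gene and in pseudogenes, which in this annotation include many transposon remnants. Sequence between genes was 57.9% of gap bases and 35.9% of the nuclear genome, and pseudogenes were 28.4% and 8.68%. Coding sequence was 6.06% of gap bases against 28.3% of the genome. In pericentromeres 50.7% of bases lay between genes, 31.6% in pseudogenes and 8.52% in coding sequence. Against these values the pseudogene and coding shares of the gaps were both lower, though the gap values include gaps on arms. In placeable gaps under 2 kb, 78.3% of bases lay between genes, 6.30% in untranslated exons and 4.23% in coding sequence. In placeable gaps of 5 kb or more, pseudogenes took 36.3% and coding sequence 10.5%. Of the 1690 placeable gaps, 674 (39.9%) reached over the end of a protein-coding gene, 398 lay between genes in tandem, 297 between divergent genes, 107 between convergent genes and 66 inside 1 gene. The remaining 148 held at least 1 whole protein-coding gene, with a median length of 4285 bp and a median GC content of 35.2%.

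The 10 longest gaps comprised 7 repeat gaps, 2 assembly gaps and 1 placeable gap, and 8 of them lay in pericentromeres. The longest, chr3:13673462-13778671, spanned 105210 bp with 2.17% of fragments placeable and overlapped 2 pseudogenes and no protein-coding gene. It was 105210 bp long in mock/high, 133120 bp in dex/high, 136240 bp in dex/low and 142780 bp in mock/low. The next, chr1:14339252-14440851, spanned 101600 bp and overlapped 18 pseudogenes, and here the lists left 106480 bp (mock/low), 108830 bp (dex/low), 103600 bp (mock/high) and 102850 bp (dex/high) open. Within it 85.6% of words of 36 bases occurred more than once, most often 45653 bp apart. Gaps chr1:15326252-15413761 (87510 bp) and chr1:15216762-15297971 (81210 bp) had 0.0457% and 0.197% of fragments placeable, and in mock/low both fell into a single open stretch of 197270 bp. Gap chr5:14384262-14464741 (80480 bp) overlapped 15 protein-coding genes. The assembly gaps chr1:14745062-14822591 (77530 bp) and chr1:14509682-14582401 (72720 bp) consisted of unknown bases for 68.4% and 86.6% of their length.

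The longest repeat gaps on arms overlapped duplicated genes. Gap chr5:20564192-20630721 (66530 bp, 0.256% placeable) overlapped 24 protein-coding genes, and 99.6% of its words of 36 bases recurred inside it, most often 33.3 kb apart. Most products occur 2 times or more, among them SUMO-activating enzyme subunits, hydroxysteroid dehydrogenases, SBP domain transcription factors and transducin/WD40 proteins. Gap chr1:21765882-21824171 (58290 bp, 0.480% placeable) had its most frequent repeat distance at 36.3 kb, and 98.9% of bases were equal at that distance without gaps in the alignment. It overlapped 13 genes, of which 4 encode CC-NBS-LRR or NB-ARC disease resistance proteins and 3 inositol-pentakisphosphate 2-kinases, which phosphorylate inositol phosphates. Gap chr4:11044282-11093101 (48820 bp, 1.02% placeable) carried a tandem array with a period of 3.26 kb, in which 13 of 21 genes encode cysteine-rich repeat secretory proteins. Gap chr1:8798212-8837831 (39620 bp, 0.480% placeable) repeated every 14.4 kb with 99.0% of bases equal, and it overlapped 15 genes with 3 F-box proteins and the beta subunit of anthranilate synthase, an enzyme of tryptophan synthesis. The chr5 gap measured 66550, 68950, 66530 and 66600 bp in mock/low, dex/low, mock/high and dex/high. The chr1 gap with disease resistance genes measured 58310, 58560, 58400 and 58310 bp, so that its ends nearly coincided in all lists. The gap with anthranilate synthase measured 39790, 44150, 39640 and 39820 bp, and the cysteine-rich array 68080, 68080, 48830 and 59370 bp.

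A transfer RNA array filled another long repeat gap on an arm, chr1:21268392-21308721 (40330 bp, 0.868% placeable). It contained the starts of 81 tRNA genes, which is 82.7% of the 98 tRNA starts in repeat gaps. Of the 81, 27 were tRNA-Ser and 54 tRNA-Tyr genes, with a median of 1531 bp between successive tRNA-Ser genes. The most frequent sequence of each type is shown with its anticodon in capitals, since identical copies of them recur in the gap.
tRNA-Ser (AT1G56760, chr1:21270296-21270377, plus strand): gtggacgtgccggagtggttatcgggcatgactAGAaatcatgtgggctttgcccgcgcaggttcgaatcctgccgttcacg
tRNA-Tyr (AT1G56750, chr1:21269552-21269636, plus strand): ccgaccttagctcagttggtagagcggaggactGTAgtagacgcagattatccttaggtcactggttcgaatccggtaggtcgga
The first was found in 13 of 27 tRNA-Ser genes and the second in 19 of 54 tRNA-Tyr genes of the gap. The lists left 40730, 40760, 40430 and 40330 bp open here in mock/low, dex/low, mock/high and dex/high. Such arrays were a small part of all repeat gaps, of which 108 of 1353 had at least 50% of their words of 36 bases recurring within the same gap. In 2 long gaps the most frequent repeat distance was between 170 and 190 bp, the range of 1 unit of the centromeric satellite. Among repeat gaps the distance found most often was 888 bp, in 7 gaps. Satellite whose identical words recur at a multiple of the unit is missed by this range. The amount of satellite in the gaps was not measured.

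Among protein-coding genes, the starts of 1502 of 27444 (5.47%) lay inside a long gap, and 740 (2.70%) inside a placeable gap. The first count was 2670 without mock/high. Of the 740, 392 lay 200 bp or more from both gap ends, and 198 protein-coding genes lay whole inside a placeable gap. In pericentromeres 22.4% of protein-coding starts were in a long gap, and on arms 4.02%. Other annotated starts in long gaps were 37.6% of pseudogenes (1474 of 3917), 17.3% of tRNA genes (108 of 625), 7.67% of microRNA genes (25 of 326), 5.83% of long noncoding RNA genes (203 of 3480) and 1.74% of small nucleolar RNA genes (5 of 287). In placeable gaps the shares were 6.33% of pseudogenes not labelled as transcribed and 6.91% of transcribed ones. They were 1.12% of tRNA genes, 5.12% of miscellaneous RNA genes, 2.76% of microRNA genes and 3.62% of long noncoding RNA genes.

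Families were read from the annotated product and are set beside the 2.70% of all protein-coding genes. That share was 7.25% for starts in pericentromeres and 2.30% for starts on arms. Disease resistance (NLR) genes had 26 of 185 starts in placeable gaps (14.1%), of which 21 were on arms and 12 genes lay whole inside. Defensin-like and other small cysteine-rich genes, many of which encode secreted peptides for defense or pollen recognition, had 32 of 294 (10.9%) after a correction of the family's text pattern, which had first also matched methionine enzymes. Genes annotated as transposon or retrotransposon had 13 of 109 (11.9%). Receptor-like kinases and proteins had 20 of 411 (4.87%), and F-box genes, which encode the substrate-binding part of ubiquitin ligases, 29 of 653 (4.44%). Shares near or below that of all genes were found for MADS-box genes (4 of 120, 3.33%), heat shock genes (3 of 112, 2.68%) and ribosomal proteins (8 of 344, 2.33%). The same held for zinc finger genes (11 of 522, 2.11%), photosystem and light-harvesting genes (1 of 55, 1.82%), self-incompatibility S1 genes (1 of 67, 1.49%) and cytochrome P450 genes (3 of 248, 1.21%). No start of the 51 histone genes lay in any long gap, against 5.47% of all protein-coding genes. With so few genes this 0 was not read as a difference from that share. Uncharacterized and hypothetical proteins had 117 of 2982 (3.92%). C1 domain genes and ankyrin repeat genes, added after their values were seen, had 26 of 151 (17.2%) and 9 of 91 (9.89%). On arms lay 29 of the 32 small cysteine-rich starts, 11 of the 13 transposon starts, 25 of the 26 C1 domain starts and 3 of the 9 ankyrin starts. Ankyrin genes AT4G03470 and AT4G03480 started in 1 gap of 6000 bp, and AT4G03490 and AT4G03500 in the neighboring gap of 7800 bp.

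**Figure D3:**
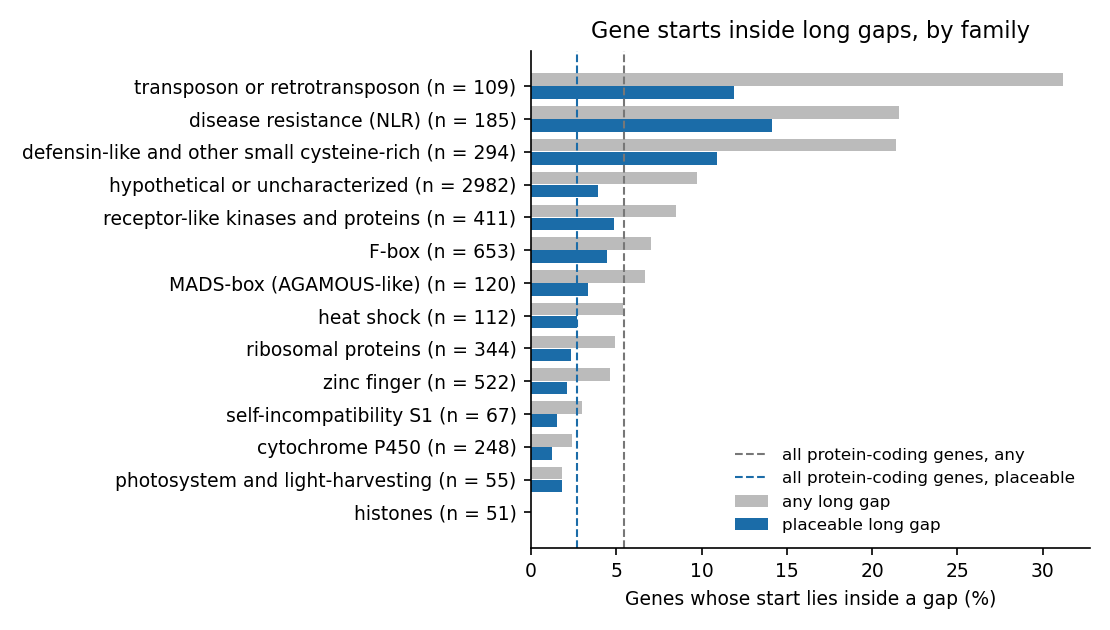
Share of genes in percent whose start lies inside any long gap (gray bars) or inside a placeable long gap (blue bars), for 14 families with the number of genes in brackets. Dashed lines mark 5.47% and 2.70% over all protein-coding genes; NLR, small cysteine-rich and transposon genes extend furthest beyond both lines, and histone genes stand at 0.

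The longest placeable gap on an arm, chr5:18299782-18320021, covered 20240 bp with 99.8% of fragments placeable and 34.2% GC. It contained the starts of AT5G45220, AT5G45230 and AT5G45240, neighboring genes for TIR-NBS-LRR immune receptors, the last 2 of them whole. The open stretch measured 21900 bp in mock/low, 22795 bp in dex/low, 20240 bp in mock/high and 20500 bp in dex/high. By the definition of a gap, all 4 lists left AT5G45230 and AT5G45240 open over their whole length and AT5G45220 at its start. Gap chr5:5907942-5923851 spanned 15910 bp with 100% placeable and 36.7% GC, and measured 15950, 18960, 15920 and 15920 bp in mock/low, dex/low, mock/high and dex/high. It held CSA1 (AT5G17880), a TIR-NBS-LRR gene, and DAR4 (AT5G17890, DA1-related protein 4), which are adjacent and whole in the gap, with starts 5375 and 6989 bp from the nearer end. Gap chr5:18433542-18446611, with AT5G45500 and AT5G45510, spanned 13070 bp with 100% placeable and measured 13795, 18807, 13110 and 13820 bp.

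Promoters of 1 gene from each of the first 2 clusters are shown because their gaps are placeable almost throughout and close to the genome in GC content. Each runs from 250 bases before to 50 after the annotated start, on the minus strand, with runs of 6 or more A or T of 1 letter in capitals: chr5:18301117-18301416 for AT5G45220 and chr5:5913268-5913567 for CSA1.
AT5G45220: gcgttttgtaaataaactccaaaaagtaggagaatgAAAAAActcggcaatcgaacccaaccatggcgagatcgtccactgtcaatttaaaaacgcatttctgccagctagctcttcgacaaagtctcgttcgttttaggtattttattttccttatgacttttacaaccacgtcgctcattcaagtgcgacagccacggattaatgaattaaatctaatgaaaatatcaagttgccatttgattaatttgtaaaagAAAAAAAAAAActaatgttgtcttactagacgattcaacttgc
CSA1: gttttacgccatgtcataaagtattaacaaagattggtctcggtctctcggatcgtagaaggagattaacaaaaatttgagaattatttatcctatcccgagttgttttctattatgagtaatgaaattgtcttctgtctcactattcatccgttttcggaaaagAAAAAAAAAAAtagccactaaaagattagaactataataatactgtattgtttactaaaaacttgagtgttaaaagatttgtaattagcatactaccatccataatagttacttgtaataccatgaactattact
Their GC contents were 35.7% and 29.7%, against a median of 32.0% for the promoters of 27443 protein-coding genes. Runs of 8 or more A or T of 1 letter were found in 38.9% of promoters with their start in a placeable gap (288 of 740), in 27.7% of those in placeable gaps of 5 kb or more (43 of 155) and in 33.1% of all promoters. The TATA box core TATAAA was present on either strand in 56.1%, 46.5% and 52.1%, in that order. GAGAGA was present in 28.4%, 31.6% and 29.2%, AAACCCTA, a word of ribosomal protein gene promoters, in 5.54%, 5.16% and 6.22%, and CCANTGG in 2.97%, 3.23% and 3.93%. All motifs were searched on both strands, each on its own, so that matches of different motifs can overlap, and the counts only describe these windows.

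**Figure D4:**
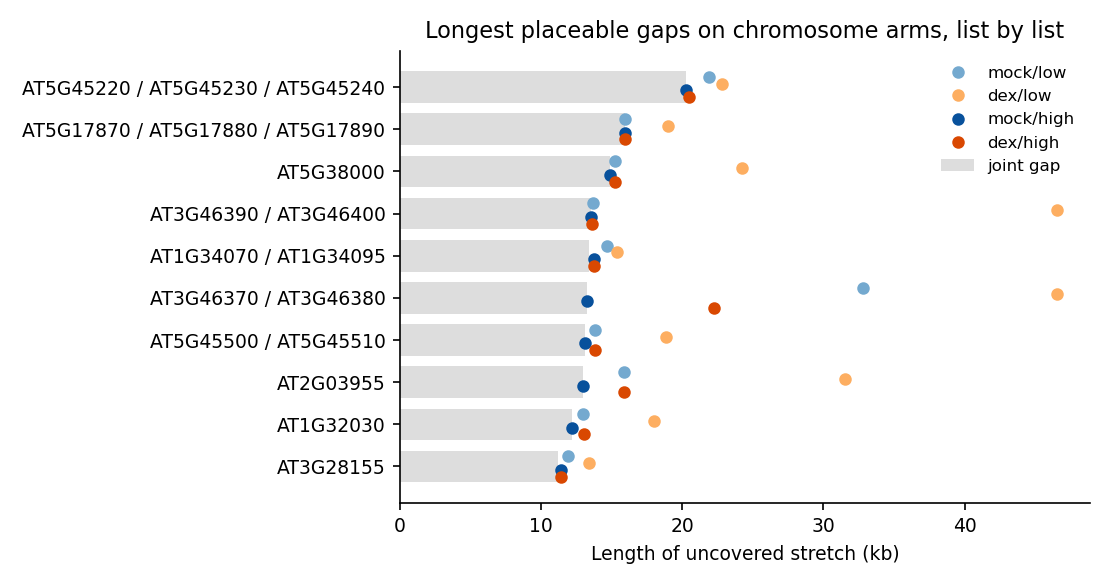
Length in kb of the joint gap (gray bar) and of the open stretch that contains it in each list (points) for the 10 longest placeable gaps on chromosome arms, named by their protein-coding genes. Most points of 3 lists sit at the end of the bar, such as 15950, 15920 and 15920 bp around AT5G17880, and those of dex/low lie further right.

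Other long placeable gaps lay in pericentromeres, where 499 placeable gaps had a median length of 1620 bp. The longest, chr3:13020612-13075421 (54810 bp, 83.9% placeable), held AT3G32030, a terpenoid cyclase, AT3G32040, a terpenoid synthase, and AT3G32047, a cytochrome P450, enzyme types that act together in plant terpene synthesis. It measured 58840, 58850, 55720 and 55630 bp in mock/low, dex/low, mock/high and dex/high. Gaps chr2:4410442-4442911 (32470 bp), chr2:4444972-4463411 (18440 bp) and chr2:4464202-4491701 (27500 bp) followed each other, and in dex/low all 3 lay in 1 open stretch of 81280 bp. They held genes for reverse transcriptase-like proteins (AT2G11035 and AT2G11205), an F-box protein (AT2G11200) and a citrate synthase-like protein (AT2G11270), with 10, 5 and 6 pseudogenes. The TIR-NBS-LRR gene AT5G36930 started in chr5:14567912-14586161 (18250 bp), which measured 20910, 24200, 18360 and 18250 bp. Further gaps with whole genes were chr3:14502162-14519971 (17810 bp, AT3G42390, uncharacterized) and the gap of 16080 bp with AT3G42550, an aspartyl protease. Of the 10 longest placeable gaps, 3 more lay in the pericentromere of chromosome 3 and overlapped pseudogenes but no protein-coding gene. The first, chr3:14362062-14394281, spanned 32220 bp with 86.2% placeable and overlapped 8 pseudogenes. The second, chr3:11625172-11642811, spanned 17640 bp with 81.5% placeable and overlapped 3, and chr3:14765922-14783161 spanned 17240 bp and overlapped 5.

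On arms, leucine-rich repeat kinase genes, a receptor family for peptide and microbial signals, stood in several neighboring gaps of chromosome 3. AT3G46400 and the NAC domain gene AT3G46390 started in a gap of 13530 bp (82.3% placeable), and AT3G46370 in a gap of 13230 bp. For the first the lists left 13640, 46540, 13530 and 13590 bp open in mock/low, dex/low, mock/high and dex/high, and for the second 32820, 46540, 13230 and 22240 bp. AT3G46350 lay whole in another gap nearby, of 6690 bp with 97.2% placeable. There the lists left 32820, 46540, 6690 and 6700 bp open, in the same order. A further pair, AT2G28990 and AT2G29000, shared a gap of 10230 bp with 99.8% placeable, and the lists left stretches of close lengths, 10230, 10565, 10270 and 10270 bp. Inside the pericentromere of chromosome 5, CYP81D1 (AT5G36220), a cytochrome P450, started 312 bp inside a gap of 12310 bp that measured 12380, 12450, 12410 and 12330 bp.

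Some named MADS-box, heat shock, zinc finger and photosystem genes started in gaps of 1270 to 3010 bp with 20.3% to 29.1% GC. The medians of all placeable gaps were 1388 bp and 27.9%. The F-box, transposon, C1 domain and ankyrin repeat genes taken by gap length started in gaps of 5540 bp or more, with 30.4% GC or more. These were the 5 in the longest gaps, out of 29, 13, 26 and 9 starts in placeable gaps. For MADS-box, heat shock and photosystem genes all 4, 3 and 1 such starts were taken, and for zinc finger genes 5 of 11. Gap length here depends on this choice and on family size, and GC content changed with gap length. The families therefore cannot be compared by these values. AGL62 (AT5G60440), a MADS-box gene that controls the timing of endosperm cellularization, started 850 bp inside a gap of 2940 bp with 22.8% GC that measured 3710, 3605, 2940 and 3520 bp in mock/low, dex/low, mock/high and dex/high. AGL53 (AT5G27070) started 130 bp inside a gap of 2200 bp with 24.6% GC and AGL23 (AT1G65360) 4 bp inside a gap of 1470 bp with 20.3% GC. BIP1 (AT5G28540), an Hsp70 chaperone of the endoplasmic reticulum, started 6 bp inside a gap of 3010 bp with 29.1% GC, and SGS3 (AT5G23570), needed for RNA silencing, 43 bp inside a gap of 1360 bp with 21.8% GC. PSBY (AT1G67740), a photosystem II protein, started 157 bp inside a gap of 1270 bp with 23.7% GC that measured 1300, 2010, 1270 and 1290 bp. In these cases apart from AGL62 the start lay under 200 bp from a gap end. Other members of the same families differed. The heat shock gene AT1G12180 started 395 bp inside a gap of 2500 bp with 33.7% GC. The zinc finger gene AT3G43750 started 1578 bp inside a gap of 4300 bp with 36.7% GC. Of all 740 starts in placeable gaps, 392 lay 200 bp or more from both gap ends.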

How the data were processed

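MNase-seq libraries were paired-end sequenced and, per the labels and the study's methods, the authors mapped pairs to TAIR10 with Bowtie 1.2.2, kept pairs with a single place, used Picard 2.9.4 and called nucleosomes with DANPOS. Each deposited list holds intervals with an occupancy signal given by the authors' caller, which was used here only as a percentile within its list. All lists are named as pooled; per the study's methods, only the dex/low libraries were merged ahead of calling, and the cutoff was otherwise set on replicates. No per-sample column was left unused (0). Chromosome lengths of the reference, TAIR10.1 with RefSeq gene models, fit the interval ends. Tiles of 36 bases every 10 bp were placed with bwa 0.7.19 (up to 2 mismatches), a procedure tested on simulated sequence. Tables were made with numpy 2.4.6 and pandas 2.3.3. Gene starts are the 5′ ends of gene features. Named were the 10 longest gaps, the 10 longest placeable gaps, about 25 genes starting 200 bp or more inside the longest placeable gaps and up to 5 genes per family; the longest repeat and placeable gaps on arms, the extremes of GC content and the tRNA array were added after values were seen. The text pattern for small cysteine-rich genes was corrected after its values had been seen, because the word thionin in it also matched methionine; this raised the share of the family. The members and lists were chosen with earlier results of these data known. With 1 list per condition no test was run. Alternatives were other minimum lengths, single lists left out, equal list sizes, coverage by 2 lists, wider intervals and other definitions of placeable gaps and pericentromeres.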

Additional observations from a re-analysis of the deposited data

How the results depend on the processing

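The counts depend on the minimum length and on the lists used. With a minimum of 500 bp there were 13648 gaps, 8359 placeable gaps and 3072 protein-coding starts inside, and with 2000 bp there were 1897, 497 and 949. With equal list sizes, keeping the nucleosomes of highest occupancy, the numbers were 9494, 5783 and 3637, and with coverage required in 2 lists they were 8265, 4948 and 3087. Leaving out 1 list gave 4683 to 7780 gaps, 1736 to 4518 placeable gaps and 1554 to 2670 starts, and the highest value came each time without mock/high; without it the share in pericentromeres was 36.5% and the median GC content of placeable gaps 27.1%. If only exact repeats counted as unplaceable, 2860 gaps were placeable. Requiring 200 bp to both gap ends left 958 starts. Widening intervals by 10 bp moved none of these 3 counts by more than 1.5 times. The share in pericentromeres ranged from 33.9% to 58.8% and the median GC content of placeable gaps from 25% to 33.9% over the alternatives in which they were computed; the GC content was not recomputed for single tiles or exact repeats. No paired analysis was possible because each condition has 1 pooled list without replicate columns. Depth is unknown, so a gap marks where no nucleosome passed the authors' threshold, and absence of nucleosomes is not shown. Gaps common to all lists were not compared with a Landsberg erecta genome or a transposon annotation, which were not used here.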
